A study of Homo sapiens with 14 samples.

Results

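The 37 genes described here encode parts of the lysosome and of the vacuolar proton pump that acidifies it. They were taken as a named list of symbols and mapped to the Ensembl identifiers of a table of read counts for 18006 genes, and each of the 37 had a row. Of them 33 had enough counts for a test, among 12080 tested genes. The list holds 16 V-ATPase genes (6 of the membrane sector V0, 8 of the cytosolic sector V1 and 2 accessory proteins), 5 genes of lysosomal membrane proteins, 6 of lysosomal proteases, 8 of glycosidases and a saposin precursor, and the transcription factors TFEB and TFE3.

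RNA was sequenced from HEK 293 cells, an established line derived from human embryonic kidney, in 5 groups. The groups were CFIm25 knockdown (n = 2), CFIm68 knockdown (n = 3), CFIm25 overexpression (n = 3), CFIm68 overexpression (n = 3) and wild-type control (n = 3). CFIm25 is the product of NUDT21 and CFIm68 that of CPSF6. Both belong to cleavage factor Im, a complex that binds pre-mRNA ahead of poly(A) sites and takes part in the choice among them. The comparisons ask whether less or more of a CFIm subunit went with other mRNA levels of lysosomal genes. All groups, control included, carry the same siRNA transfection protocol in the labels. Whether the controls received a control siRNA or a vector, and how the subunits were overexpressed, was not stated in the sources at hand. Nothing states that the replicates were separate cultures, so p-values measure only how far these libraries differ, possibly for technical reasons.

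Total counts per library were between 15822467 and 33895308, and log2 CPM correlated across genes at r = 0.993 to 0.997 within groups. CPM here are each gene's counts relative to the library's total over tested genes, after scaling by TMM. The targeted genes followed the labels in all 4 perturbed groups. NUDT21 had 54.6 and 52.9 CPM in CFIm25 knockdown, 242, 231 and 224 CPM in CFIm68 knockdown, 782, 734 and 671 CPM in CFIm25 overexpression, 646, 597 and 549.7 CPM in CFIm68 overexpression, against 537, 500.4 and 505 CPM in control. Its log2 change was -3.26 in CFIm25 knockdown and 0.50 in CFIm25 overexpression. CPSF6 had 526 and 540.3 CPM in CFIm25 knockdown, 40.5, 41.8 and 42.5 CPM in CFIm68 knockdown, 263, 256 and 237 CPM in CFIm25 overexpression, 717, 749.9 and 723 CPM in CFIm68 overexpression, against 274, 262 and 268 CPM in control. Its log2 change was -2.69 in CFIm68 knockdown and 1.45 in CFIm68 overexpression. Both partner subunits also changed in the knockdown of the other, CPSF6 by 0.99 in CFIm25 knockdown and NUDT21 by -1.14 in CFIm68 knockdown. All 7 genes of a list typical of HEK 293 cells were tested. Their summed level was 3576 to 3588 CPM in CFIm25 knockdown and 3636.5 to 3828 CPM in CFIm68 knockdown. It was 3465 to 4111 CPM in CFIm25 overexpression and 3053 to 3296 CPM in CFIm68 overexpression, against 3702 to 4022 CPM in control. CFIm25 knockdown and CFIm68 overexpression thus lay below control. Most of the sum was CKB, and NEFM had only 0.063 to 0.85 CPM. Of 9 kidney tubule and glomerulus genes 2 were tested, LRP2 and CUBN, while AQP2 and SLC34A1 were listed at 0. Of 8 mesenchymal genes 4 were tested, with COL1A2, DCN and FN1 listed at 0, and their summed level was 57.1 to 60.9 CPM in CFIm25 knockdown, 67.9 to 71.3 CPM in CFIm68 knockdown, 48.04 to 54.7 CPM in CFIm25 overexpression and 25.7 to 29.6 CPM in CFIm68 overexpression, against 52.4 to 56.9 CPM in control. Of 8 blood genes 2 were tested, with PTPRC, HBB and HBA1 listed at 0, and their sum was 8.67 to 9.58 CPM in CFIm25 knockdown, 6.21 to 7.61 CPM in CFIm68 knockdown, 12.3 to 13.4 CPM in CFIm25 overexpression and 19.4 to 23.4 CPM in CFIm68 overexpression, against 11.96 to 12.1 CPM in control. Most of it was CD68, a lysosomal membrane protein that is also in the wider lysosomal list, with 17.5 to 21.3 CPM in CFIm68 overexpression and 11.1 to 11.3 CPM in control. Of 7 keratinocyte and epithelial genes 3 were tested and 0 were at 0 throughout, with sums of 36.3 to 55.1 CPM over the perturbed groups, against 29.04 to 33.6 CPM in control. The part of these genes in the lysosomal values was not tested.

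Lysosomes are acidic organelles that break down proteins, lipids, glycans and whole organelles. The V-ATPase uses ATP, hydrolysed in its V1 head, to turn a ring of proteolipids in V0 that carries protons into the lumen. The low pH activates cathepsins and glycosidases, while heavily glycosylated membrane proteins such as LAMP1 and LAMP2 line the inside of the membrane. TFEB and TFE3 are basic helix-loop-helix factors that enter the nucleus when mTORC1 activity is low and bind E-box letters, CACGTG, ahead of many lysosomal genes.

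GAA (acid alpha-glucosidase), GUSB (beta-glucuronidase) and TFEB were listed at 0 in all 14 libraries. Another gene used by every cell, HSPA8, was also listed at 0, as were 2524 genes in all, so nothing is read from these zeros. MCOLN1, a calcium and cation channel of the lysosomal membrane, had too few counts and was not tested. The counts were 2 and 1 in the CFIm25 knockdown libraries and 4, 3 and 5 in those of CFIm68 knockdown. They were 2, 1 and 1 in CFIm25 overexpression, 5, 0 and 1 in CFIm68 overexpression, and 3, 2 and 7 in control. MCOLN1 shares 175 exon bases on the same strand with AC008878.2 and PNPLA6, and whether reads were lost there was not tested. Per kilobase of the annotated main transcript, control levels of the tested members were highest for PSAP (247 ± 8.54 CPM per kb, SD, n = 3), GLA (225 ± 5.85) and CD63 (195 ± 5.18). They were lowest for ATP6V0A2 (3.47 ± 0.10) and TPP1 (1.02 ± 0.10). The subunits of 1 pump thus differed in mRNA level per kb, with ATP6V1E1 at 128 ± 7.36 in control and ATP6V1C1 at 8.35 ± 0.30. This difference was far above the spread over the 3 libraries. It depends on the transcripts chosen, of 1402 bases for ATP6V1E1 and 5612 for ATP6V1C1. The 3′ ends in use were not measured, and the SD does not cover this. In control CPM these genes stood at 171 to 190.4 and 45.0 to 48.2.

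All comparisons with control share the same 3 control libraries, so the counts below are not independent of each other. Whether a gene passes also depends on how many reads it has. The members were not matched by level to the genes behind the all-gene shares, here or below. In CFIm25 overexpression 24 of the 33 tested members passed the test (edgeR, adjusted p under 0.05 over all tested genes), against 56.7% of all tested genes. Of these, 20 members (60.6%) were lower, against 29.1% of all genes, and 4 were higher, against 27.7%. The median log2 change of the members was -0.29, beside -0.0019 for all tested genes. In CFIm25 knockdown 22 of 33 passed, against 47.6% of all genes, with 13 lower (background 23.2%) and 9 higher (background 24.4%). In CFIm68 knockdown 25 of 33 passed, against 56.4% of all genes, with 16 lower (background 28.1%) and 9 higher (background 28.3%). The median changes in the knockdowns were -0.04 and -0.13, with CFIm25 first. In CFIm68 overexpression 17 of 33 passed, against 29.8% of all genes, with 9 lower (background 15.4%) and 8 higher (background 14.5%) and a median of 0.02. The higher counts rest in part on single libraries. That of CFIm68 overexpression was 4 without control replicate 1 and 5 without CFIm68 overexpression replicate 2 or 3, and that of CFIm25 knockdown was 5 without CFIm25 knockdown replicate 2. In bulk RNA, fewer cells with a transcript and less of it per cell cannot be told apart.

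The summed level of the members was 3740.4 and 3866 CPM in CFIm25 knockdown, 3777 to 3832 CPM in CFIm68 knockdown, 3429.5 to 3698 CPM in CFIm25 overexpression and 4235 to 4427 CPM in CFIm68 overexpression, against 4092 to 4291 CPM in control. The CFIm25 overexpression libraries had the lowest sums and all lay below control, as did all knockdown libraries, while CFIm68 overexpression and control overlapped. For the 16 V-ATPase genes alone the sums were 1271 and 1322 CPM in CFIm25 knockdown, 1297 to 1319 CPM in CFIm68 knockdown, 1104 to 1178 CPM in CFIm25 overexpression and 1237 to 1254 CPM in CFIm68 overexpression, against 1284 to 1363 CPM in control. Here the knockdowns overlapped with control and both overexpression groups lay below it. These sums are given without a test.

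**Figure D1:**
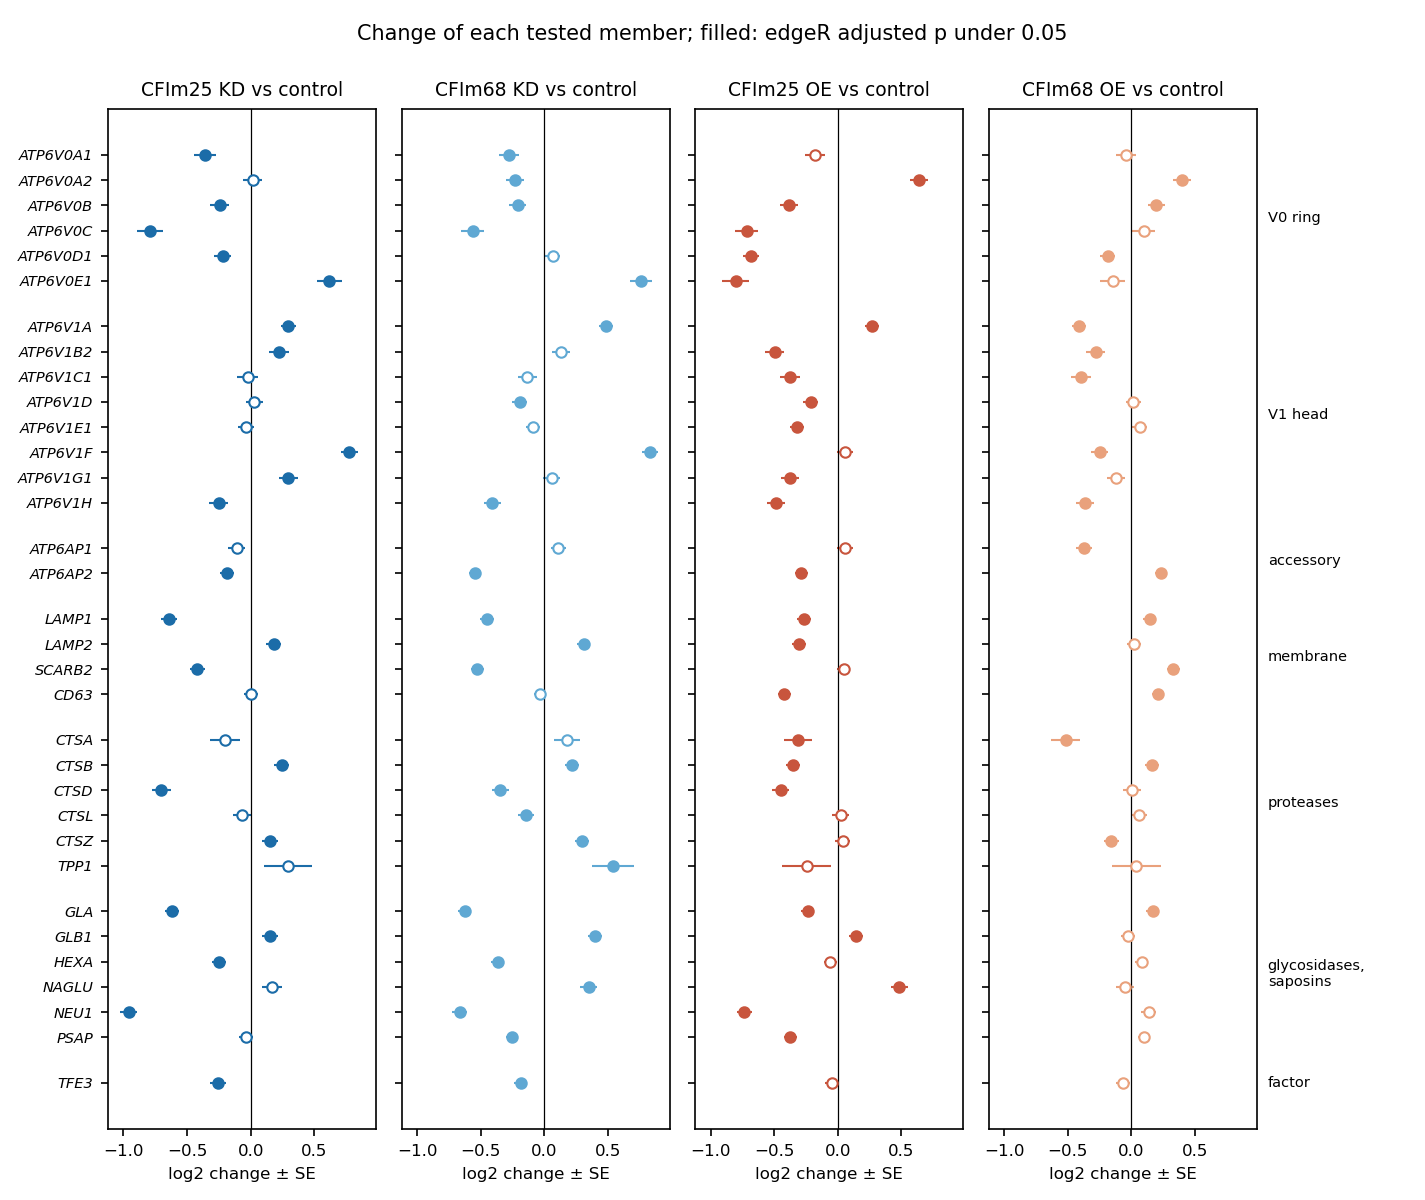
Log2 change ± SE (horizontal axis) of the 33 tested members, by role from top to bottom, in each of the 4 comparisons with control; filled points passed edgeR's test at an adjusted p under 0.05. In CFIm25 overexpression 20 members lie left of 0 with filled points, among them 11 of the 16 V-ATPase genes, while CFIm68 overexpression has 9 lower and 8 higher.

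In the V0 sector, which holds the proton-carrying ring, 4 of 6 genes fell and 1 rose in each knockdown and in CFIm25 overexpression, and 1 fell and 2 rose in CFIm68 overexpression. Over all genes 23.2% fell and 24.4% rose in CFIm25 knockdown, and 28.1% fell and 28.3% rose in CFIm68 knockdown. In CFIm25 overexpression 29.1% of all genes fell and 27.7% rose, and in CFIm68 overexpression 15.4% fell and 14.5% rose. ATP6V0C encodes the proteolipid that makes up most of the ring. It had 33.3 and 43.5 CPM in CFIm25 knockdown, 46.3, 44.7 and 45.1 CPM in CFIm68 knockdown, 34.02, 44.6 and 44.5 CPM in CFIm25 overexpression, 64.5, 72.2 and 78.4 CPM in CFIm68 overexpression, against 63.4, 65.9 and 71.9 CPM in control. Both knockdowns and CFIm25 overexpression lay wholly below control, and CFIm68 overexpression overlapped with it. ATP6V0C fell by 0.79 ± 0.10 (edgeR adjusted p = 3.25e-07) on the log2 scale in CFIm25 knockdown and by 0.56 ± 0.09 (edgeR adjusted p = 4.51e-06) in CFIm68 knockdown. In CFIm25 overexpression it fell by 0.72 ± 0.09 (edgeR adjusted p = 1.77e-07). Its change in CFIm68 overexpression was 0.10 ± 0.09 (edgeR adjusted p = 0.443). At chr16:2513870-2520218 (hg38, GENCODE 29) the gene shares 1080 exon bases on the same strand with AC093525.1 and AC093525.2, which were not analysed here, and 87.3% of its 50-base stretches recur in them, so reads of these loci cannot be told apart and its values are uncertain to that extent. ATP6V0B, which encodes the second proteolipid of the ring, ranged over 66.5 to 72.3 CPM in CFIm25 knockdown, 70.4 to 72.5 CPM in CFIm68 knockdown, 55.3 to 69.4 CPM in CFIm25 overexpression, 89.7 to 101 CPM in CFIm68 overexpression, against 79.2 to 85.7 CPM in control. It fell by 0.24 ± 0.08 (edgeR adjusted p = 0.00914) in CFIm25 knockdown, by 0.21 ± 0.07 (edgeR adjusted p = 0.00962) in CFIm68 knockdown and by 0.38 ± 0.07 (edgeR adjusted p = 2.75e-05) in CFIm25 overexpression, and rose by 0.20 ± 0.07 (edgeR adjusted p = 0.0273) in CFIm68 overexpression. The ATP6V0B call in CFIm25 knockdown was lost without CFIm25 knockdown replicate 1 (log2 change -0.18, adjusted p = 0.13). The ATP6V0B call in CFIm68 overexpression was lost without any 1 of CFIm68 overexpression replicate 3 or control replicate 1 or 2, with log2 changes of 0.14 to 0.19 and adjusted p-values of 0.0713 to 0.156.

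ATP6V0E1, a small membrane subunit at chr5:172983757-173035445, moved in opposite directions in knockdown and in CFIm25 overexpression. It had 21.7 and 24.1 CPM in CFIm25 knockdown, 24.9, 25.2 and 26.1 CPM in CFIm68 knockdown, 7.76, 9.39 and 8.75 CPM in CFIm25 overexpression, 14.1, 13.1 and 13.4 CPM in CFIm68 overexpression, against 15.9, 12.6 and 16.4 CPM in control. All 5 knockdown libraries lay above control, all CFIm25 overexpression libraries lay below it, and CFIm68 overexpression overlapped with it. The rise was 1.53-fold in CFIm25 knockdown (log2 change 0.62 ± 0.10, edgeR adjusted p = 7.22e-06) and 1.70-fold in CFIm68 knockdown (0.76 ± 0.09, edgeR adjusted p = 2.6e-08). In CFIm25 overexpression it fell by 0.80 on the log2 scale, the largest fall of any tested member there (edgeR adjusted p = 1.91e-07).

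ATP6V0A2 encodes an isoform of the a subunit, which forms the proton half-channels and is best known from the Golgi and endosomes. It had 23.2 and 22.7 CPM in CFIm25 knockdown, 19.3, 19.8 and 19.1 CPM in CFIm68 knockdown, 37.1, 34.1 and 34.8 CPM in CFIm25 overexpression, 31.9, 28.6 and 29.4 CPM in CFIm68 overexpression, against 22.4, 22.3 and 23.5 CPM in control. Both overexpression groups lay above control and CFIm68 knockdown lay below it. ATP6V0A2 rose by 0.64 ± 0.07 (edgeR adjusted p = 8.73e-09) in CFIm25 overexpression and by 0.40 ± 0.07 (edgeR adjusted p = 0.000101) in CFIm68 overexpression, and fell by 0.23 ± 0.07 (edgeR adjusted p = 0.00704) in CFIm68 knockdown. Its sister isoform ATP6V0A1 ranged over 20.7 to 23.2 CPM in CFIm25 knockdown, 21.7 to 24.4 CPM in CFIm68 knockdown, 24.7 to 25.2 CPM in CFIm25 overexpression, 24.4 to 30.7 CPM in CFIm68 overexpression, against 27.9 to 28.7 CPM in control. ATP6V0A1 fell by 0.36 ± 0.09 (edgeR adjusted p = 0.00111) in CFIm25 knockdown and by 0.28 ± 0.08 (edgeR adjusted p = 0.00326) in CFIm68 knockdown, and its changes of -0.18 in CFIm25 overexpression and -0.04 in CFIm68 overexpression did not pass. ATP6V0D1, which joins the ring to the central stalk, had 83.2 and 89.99 CPM in CFIm25 knockdown, 103, 106 and 108 CPM in CFIm68 knockdown, 62.5, 64.7 and 61.5 CPM in CFIm25 overexpression, 88.04, 89.3 and 88.8 CPM in CFIm68 overexpression, against 99.4, 92.3 and 111 CPM in control. The CFIm25 overexpression libraries were the lowest of all 14 and did not overlap with any other group. ATP6V0D1 fell by 0.68 ± 0.06 (edgeR adjusted p = 2.55e-10) in CFIm25 overexpression, by 0.22 ± 0.07 (edgeR adjusted p = 0.00737) in CFIm25 knockdown and by 0.19 ± 0.06 (edgeR adjusted p = 0.0195) in CFIm68 overexpression. The ATP6V0D1 call in CFIm25 knockdown was lost without CFIm25 knockdown replicate 1 (log2 change -0.17, adjusted p = 0.124) and without control replicate 3 (-0.14, adjusted p = 0.0658). The ATP6V0D1 call in CFIm68 overexpression was lost without CFIm68 overexpression replicate 2 (log2 change -0.19, adjusted p = 0.0511) and without control replicate 3 (-0.11, adjusted p = 0.173).

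**Figure D2:**
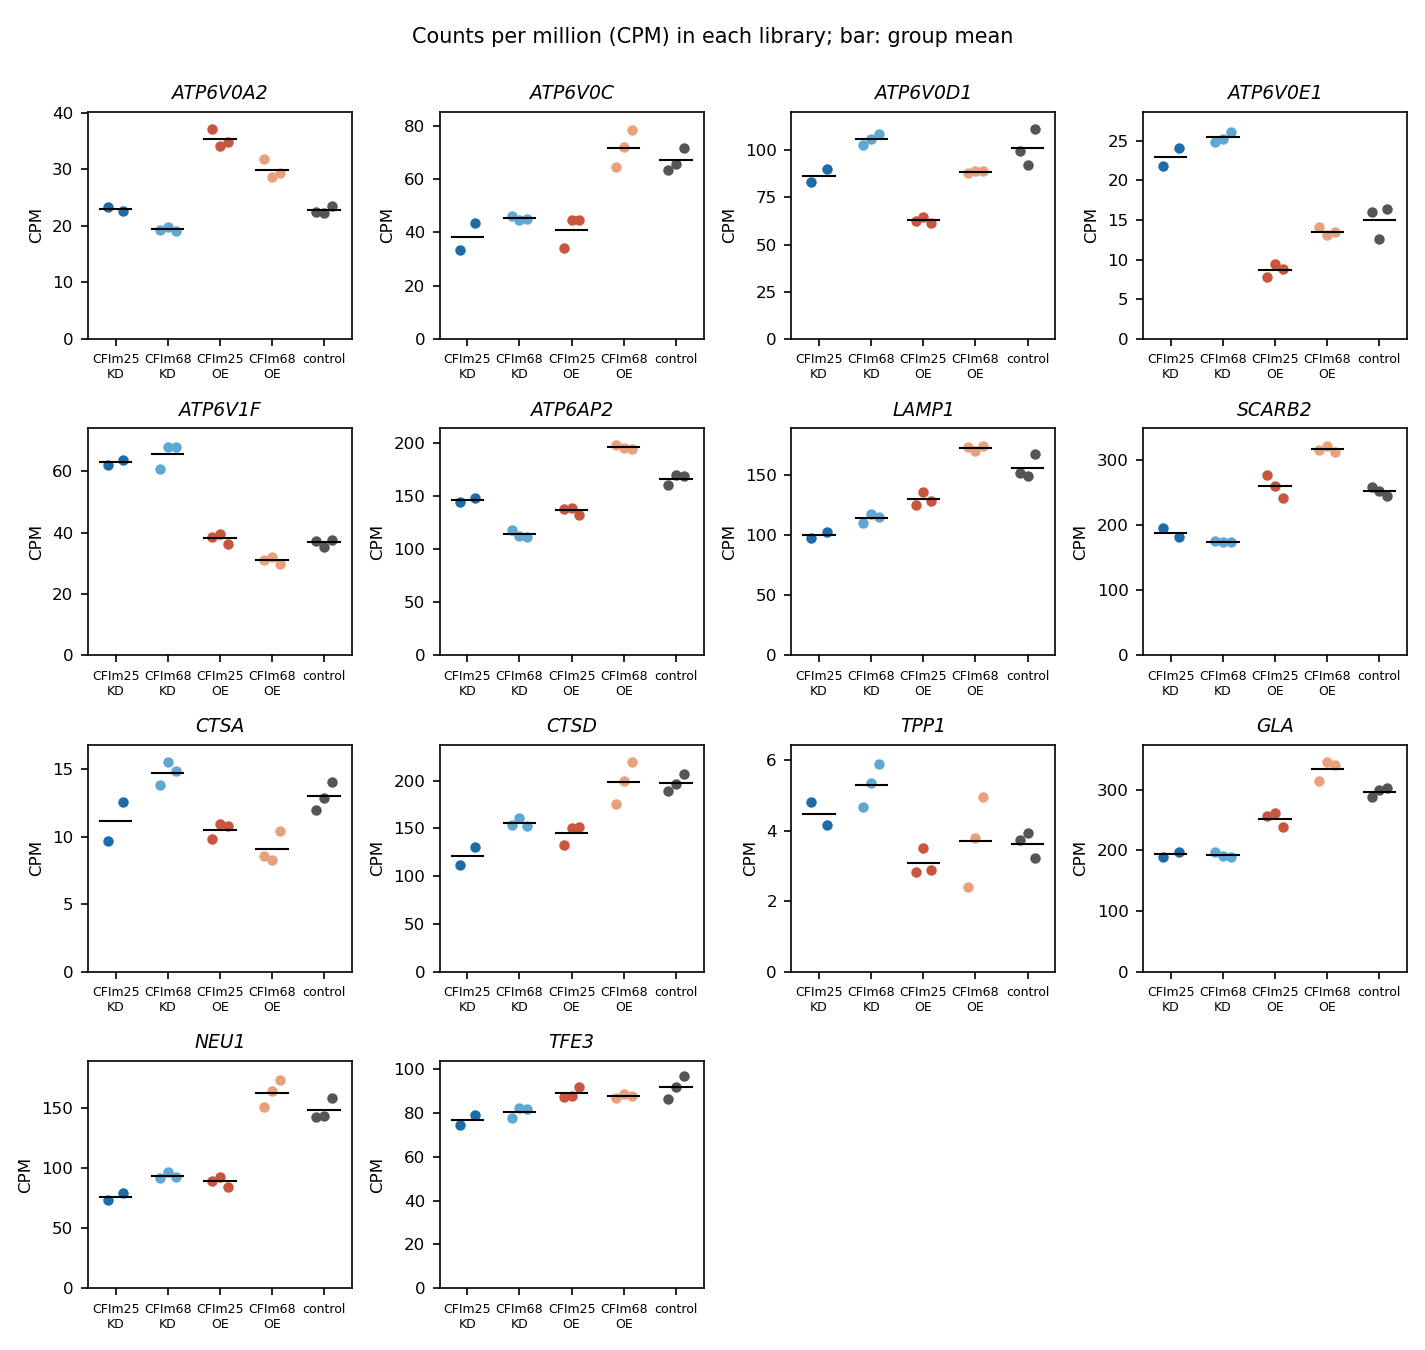
CPM (vertical axes, from 0) of 14 members in each library, by group; points are libraries and bars are group means. ATP6V0E1 and ATP6V1F are higher in all 5 knockdown libraries than in control, and ATP6V0C, LAMP1, CTSD, GLA and NEU1 are lower in them.

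In the V1 sector, which hydrolyses ATP, 6 of 8 genes fell and 1 rose in CFIm25 overexpression, and 5 fell and 0 rose in CFIm68 overexpression. In CFIm25 knockdown 4 rose and 1 fell, and in CFIm68 knockdown 2 rose and 2 fell. Those of CFIm68 knockdown, 25% of the list each way, were near the shares of all genes, 28.3% higher and 28.1% lower. In CFIm25 knockdown 24.4% of all genes rose and 23.2% fell, so the share lower there (12.5%) was below that of all genes. In CFIm68 overexpression 15.4% of all genes fell and 14.5% rose, and in CFIm25 overexpression 29.1% fell and 27.7% rose. ATP6V1F, a subunit of the central stalk at chr7:128862826-128865844, had 62.2 and 63.8 CPM in CFIm25 knockdown, 60.6, 67.8 and 68.02 CPM in CFIm68 knockdown, 38.6, 39.7 and 36.5 CPM in CFIm25 overexpression, 31.1, 31.9 and 29.9 CPM in CFIm68 overexpression, against 37.4, 35.5 and 37.6 CPM in control. The 5 knockdown libraries lay above every other library, and CFIm68 overexpression lay below control. ATP6V1F rose 1.71-fold in CFIm25 knockdown (log2 change 0.78 ± 0.07, edgeR adjusted p = 4.41e-10) and 1.78-fold in CFIm68 knockdown (0.83 ± 0.06, edgeR adjusted p = 5.74e-12). It fell by 0.25 ± 0.07 (edgeR adjusted p = 0.00585) in CFIm68 overexpression, and its change in CFIm25 overexpression was 0.06 ± 0.07 (edgeR adjusted p = 0.487).

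ATP6V1A encodes the catalytic subunit of the head and ranged over 203 to 218 CPM in CFIm25 knockdown, 235 to 251 CPM in CFIm68 knockdown, 196 to 220.1 CPM in CFIm25 overexpression, 126 to 132 CPM in CFIm68 overexpression, against 162 to 178 CPM in control. Its libraries did not overlap with control in any group, being above it in both knockdowns and in CFIm25 overexpression and below it in CFIm68 overexpression. ATP6V1A rose by 0.30 ± 0.06 (edgeR adjusted p = 0.000168) in CFIm25 knockdown, 0.49 ± 0.05 (edgeR adjusted p = 1.02e-08) in CFIm68 knockdown and 0.27 ± 0.05 (edgeR adjusted p = 0.000113) in CFIm25 overexpression. It fell by 0.41 ± 0.06 (edgeR adjusted p = 2e-06) in CFIm68 overexpression. Its partner in the head, the non-catalytic subunit encoded by ATP6V1B2, ranged over 36.00 to 37.7 CPM in CFIm25 knockdown, 33.7 to 35.6 CPM in CFIm68 knockdown, 22.1 to 22.9 CPM in CFIm25 overexpression, 24.6 to 28.9 CPM in CFIm68 overexpression, against 29.99 to 33.4 CPM in control. ATP6V1B2 fell by 0.50 ± 0.07 (edgeR adjusted p = 1.69e-06) in CFIm25 overexpression and by 0.28 ± 0.07 (edgeR adjusted p = 0.00452) in CFIm68 overexpression, rose by 0.22 ± 0.08 (edgeR adjusted p = 0.0161) in CFIm25 knockdown, and changed by 0.13 ± 0.07 (edgeR adjusted p = 0.103) in CFIm68 knockdown, which did not pass. The ATP6V1B2 call in CFIm25 knockdown was lost without CFIm25 knockdown replicate 2 (log2 change 0.19, adjusted p = 0.138) and without control replicate 2 (0.19, adjusted p = 0.0718).

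ATP6V1H, a regulatory subunit of the head, was lower in all 4 comparisons. It ranged over 63.97 to 66.5 CPM in CFIm25 knockdown, 56.8 to 61.5 CPM in CFIm68 knockdown, 48.9 to 59.8 CPM in CFIm25 overexpression, 56.7 to 63.4 CPM in CFIm68 overexpression, against 73.5 to 83.2 CPM in control, so that no library of any group reached the lowest control library. The falls were 0.25 ± 0.08 (edgeR adjusted p = 0.0068) in CFIm25 knockdown, 0.41 ± 0.07 (edgeR adjusted p = 8.19e-06) in CFIm68 knockdown, 0.48 ± 0.07 (edgeR adjusted p = 9.45e-07) in CFIm25 overexpression and 0.36 ± 0.07 (edgeR adjusted p = 0.000201) in CFIm68 overexpression. The ATP6V1H call in CFIm25 knockdown was lost without CFIm25 knockdown replicate 2 (log2 change -0.22, adjusted p = 0.0777). The remaining stalk subunits fell in CFIm25 overexpression, ATP6V1C1 by 0.37, ATP6V1G1 by 0.38, ATP6V1E1 by 0.32 and ATP6V1D by 0.21 on the log2 scale. The ATP6V1D call in CFIm25 overexpression was lost without CFIm25 overexpression replicate 3 (log2 change -0.14, adjusted p = 0.0545). Control levels were 45.0 to 48.2 CPM for ATP6V1C1, 34.1 to 39.3 CPM for ATP6V1G1, 171 to 190.4 CPM for ATP6V1E1 and 105 to 113 CPM for ATP6V1D. In CFIm68 overexpression ATP6V1C1 fell by 0.40 ± 0.08 (edgeR adjusted p = 0.000289), and ATP6V1D (0.02), ATP6V1E1 (0.07) and ATP6V1G1 (-0.12) did not pass. In the knockdowns ATP6V1G1 rose by 0.30 ± 0.07 (edgeR adjusted p = 0.00158) in CFIm25 knockdown and ATP6V1D fell by 0.19 ± 0.06 (edgeR adjusted p = 0.00747) in CFIm68 knockdown, and the other changes of these 4 genes did not pass. The ATP6V1G1 call in CFIm25 knockdown was lost without CFIm25 knockdown replicate 1 (log2 change 0.21, adjusted p = 0.0666). ATP6V1D shares 269 exon bases with EIF2S1 on the opposite strand, and 9.46% of the 50-base stretches of ATP6V1E1 recur in annotated transcripts of other loci, so these counts may hold reads of other genes.

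Of the accessory proteins, ATP6AP2, also known as the prorenin receptor, had 144 and 148 CPM in CFIm25 knockdown, 118, 113 and 112 CPM in CFIm68 knockdown, 138, 139 and 132 CPM in CFIm25 overexpression, 198, 196 and 194 CPM in CFIm68 overexpression, against 160.5, 170.1 and 169 CPM in control. No group overlapped with control: both knockdowns and CFIm25 overexpression were below it and CFIm68 overexpression was above it. ATP6AP2 fell by 0.19 ± 0.05 (edgeR adjusted p = 0.00515) in CFIm25 knockdown, by 0.54 ± 0.05 (edgeR adjusted p = 2.15e-10) in CFIm68 knockdown and by 0.29 ± 0.05 (edgeR adjusted p = 1.33e-05) in CFIm25 overexpression, and rose by 0.23 ± 0.05 (edgeR adjusted p = 0.000505) in CFIm68 overexpression. The ATP6AP2 call in CFIm25 knockdown was lost without CFIm25 knockdown replicate 1 (log2 change -0.17, adjusted p = 0.057). ATP6AP1, a glycoprotein needed to assemble V0, ranged over 129.7 to 142 CPM in CFIm25 knockdown, 149 to 166 CPM in CFIm68 knockdown, 147 to 157 CPM in CFIm25 overexpression, 104 to 123 CPM in CFIm68 overexpression, against 141 to 156 CPM in control. It fell by 0.37 ± 0.06 (edgeR adjusted p = 3.99e-05) in CFIm68 overexpression, and its other changes, -0.11 in CFIm25 knockdown, 0.11 in CFIm68 knockdown and 0.06 in CFIm25 overexpression, did not pass.

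Among membrane proteins of the lysosome, 2 of 4 tested genes fell and 1 rose in each knockdown, 3 fell in CFIm25 overexpression and 3 rose in CFIm68 overexpression. With 1 of 4 genes higher, the knockdowns were near the shares of all genes, 24.4% for CFIm25 and 28.3% for CFIm68. Over all genes 23.2% fell in CFIm25 knockdown, 28.1% in CFIm68 knockdown and 29.1% in CFIm25 overexpression, and 14.5% rose in CFIm68 overexpression. LAMP1, at chr13:113297241-113323672, encodes a main glycoprotein of the lysosomal membrane. It had 97.3 and 102 CPM in CFIm25 knockdown, 110.4, 117 and 115 CPM in CFIm68 knockdown, 125, 136 and 128 CPM in CFIm25 overexpression, 173, 169.8 and 174 CPM in CFIm68 overexpression, against 151, 149 and 167 CPM in control. The 5 knockdown libraries were the lowest, CFIm25 overexpression came next, and all of these lay below control. LAMP1 fell 1.56-fold in CFIm25 knockdown (log2 change -0.64 ± 0.06, edgeR adjusted p = 1.75e-09), 1.37-fold in CFIm68 knockdown (-0.45 ± 0.05, edgeR adjusted p = 4.1e-08) and 1.20-fold in CFIm25 overexpression (-0.27 ± 0.05, edgeR adjusted p = 0.000116). It rose by 0.14 ± 0.05 (edgeR adjusted p = 0.042) in CFIm68 overexpression. The LAMP1 call in CFIm68 overexpression was lost without any 1 of CFIm68 overexpression replicate 1 or 2 or 3 or control replicate 1 or 2, with log2 changes of 0.11 to 0.16 and adjusted p-values of 0.071 to 0.167. The call was lost as well without a filter on low counts (0.14, adjusted p = 0.0537) and in a fit of the compared groups alone (0.14, adjusted p = 0.0772). LAMP2, its relative with a role in chaperone-mediated autophagy, ranged over 164 to 165 CPM in CFIm25 knockdown, 176 to 185 CPM in CFIm68 knockdown, 107 to 124 CPM in CFIm25 overexpression, 146 to 148 CPM in CFIm68 overexpression, against 139 to 150.4 CPM in control. LAMP2 rose by 0.18 ± 0.06 (edgeR adjusted p = 0.0127) in CFIm25 knockdown and by 0.31 ± 0.05 (edgeR adjusted p = 1.54e-05) in CFIm68 knockdown and fell by 0.30 ± 0.05 (edgeR adjusted p = 2.57e-05) in CFIm25 overexpression. The LAMP2 call in CFIm25 knockdown was lost without any 1 of CFIm25 knockdown replicate 1 or 2 or control replicate 3, with log2 changes of 0.15 to 0.19 and adjusted p-values of 0.0528 to 0.0732.

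SCARB2 encodes LIMP-2, a membrane protein of lysosomes that also acts as a sorting receptor. It had 195 and 181 CPM in CFIm25 knockdown, 175, 174 and 174 CPM in CFIm68 knockdown, 277, 260.4 and 241 CPM in CFIm25 overexpression, 315, 322 and 312 CPM in CFIm68 overexpression, against 258, 252 and 244 CPM in control. The knockdown libraries lay below every other library and the CFIm68 overexpression libraries above. SCARB2 fell by 0.42 ± 0.06 (edgeR adjusted p = 9.68e-07) in CFIm25 knockdown and by 0.53 ± 0.05 (edgeR adjusted p = 1e-09) in CFIm68 knockdown, and rose by 0.33 ± 0.05 (edgeR adjusted p = 1.36e-05) in CFIm68 overexpression. Its change in CFIm25 overexpression was 0.05 ± 0.05 (edgeR adjusted p = 0.466). CD63, a tetraspanin of late endosomes and lysosomes, ranged over 236 to 246 CPM in CFIm25 knockdown, 231 to 238 CPM in CFIm68 knockdown, 168 to 188 CPM in CFIm25 overexpression, 273 to 285 CPM in CFIm68 overexpression, against 234 to 247 CPM in control. Its knockdown libraries overlapped with control, and the overexpression groups stood on opposite sides of it. CD63 fell by 0.42 ± 0.05 (edgeR adjusted p = 4.58e-08) in CFIm25 overexpression and rose by 0.21 ± 0.05 (edgeR adjusted p = 0.00191) in CFIm68 overexpression.

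Of the 6 protease genes 3 fell and 0 rose in CFIm25 overexpression, and 2 fell and 1 rose in CFIm68 overexpression. In CFIm25 knockdown 1 fell and 2 rose, and in CFIm68 knockdown 2 fell and 3 rose. Over all genes 29.1% fell and 27.7% rose in CFIm25 overexpression, and 15.4% fell in CFIm68 overexpression. In the knockdowns 24.4% of all genes rose for CFIm25 and 28.3% for CFIm68. The share higher in CFIm68 overexpression (16.7%) was near that of all genes (14.5%), as was the share lower in CFIm68 knockdown (33.3% beside 28.1%), and the share lower in CFIm25 knockdown (16.7%) was below that of all genes (23.2%). CTSD encodes the aspartic protease cathepsin D. It had 112 and 130.2 CPM in CFIm25 knockdown, 153, 161 and 152 CPM in CFIm68 knockdown, 133, 150.4 and 151 CPM in CFIm25 overexpression, 176, 200.1 and 219 CPM in CFIm68 overexpression, against 189, 196 and 207 CPM in control. Both knockdowns and CFIm25 overexpression lay below control without overlap, and CFIm68 overexpression spanned the control range. CTSD fell 1.63-fold in CFIm25 knockdown (log2 change -0.70 ± 0.08, edgeR adjusted p = 2.33e-08), 1.27-fold in CFIm68 knockdown (-0.35 ± 0.07, edgeR adjusted p = 7.72e-05) and 1.36-fold in CFIm25 overexpression (-0.45 ± 0.07, edgeR adjusted p = 2.53e-06). At chr11:1752752-1764573 it shares 1304 exon bases with AC068580.4 on the same strand, a locus not analysed here, and 60.6% of its 50-base stretches recur in annotated transcripts of other loci, so its values are uncertain to that extent.

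CTSA encodes protective protein, a carboxypeptidase that holds the sialidase NEU1 in its active complex. It had 9.72 and 12.6 CPM in CFIm25 knockdown, 13.8, 15.5 and 14.8 CPM in CFIm68 knockdown, 9.82, 10.9 and 10.8 CPM in CFIm25 overexpression, 8.58, 8.30 and 10.4 CPM in CFIm68 overexpression, against 11.97, 12.9 and 14.1 CPM in control. CFIm68 overexpression and CFIm25 overexpression lay below control, and both knockdowns overlapped with it. CTSA fell by 0.52 ± 0.11 (edgeR adjusted p = 0.00106) in CFIm68 overexpression and by 0.31 ± 0.11 (edgeR adjusted p = 0.0171) in CFIm25 overexpression. The CTSA call in CFIm25 overexpression was lost without CFIm25 overexpression replicate 1 (log2 change -0.25, adjusted p = 0.0854) and without control replicate 3 (-0.25, adjusted p = 0.0901). The gene shares 1668 exon bases on the opposite strand with other genes, among them NEURL2 and PLTP. TPP1, a serine protease that trims tripeptides from proteins, had low values of 4.81 and 4.16 CPM in CFIm25 knockdown, 4.67, 5.35 and 5.91 CPM in CFIm68 knockdown, 2.83, 3.51 and 2.90 CPM in CFIm25 overexpression, 2.40, 3.79 and 4.96 CPM in CFIm68 overexpression, against 3.74, 3.93 and 3.22 CPM in control. The knockdown libraries lay above control, and both overexpression groups overlapped with it. TPP1 rose by 0.54 ± 0.17 (edgeR adjusted p = 0.00755) in CFIm68 knockdown, and its change of 0.29 ± 0.19 (edgeR adjusted p = 0.207) in CFIm25 knockdown did not pass. TPP1 shares 756 exon bases with AC091564.7 on the same strand.

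The cysteine cathepsins differed among themselves. CTSB ranged over 199 to 207 CPM in CFIm25 knockdown, 195 to 203 CPM in CFIm68 knockdown, 126 to 147 CPM in CFIm25 overexpression, 183 to 196 CPM in CFIm68 overexpression, against 169 to 174 CPM in control and did not overlap with control in any group. It rose by 0.24 ± 0.06 (edgeR adjusted p = 0.00137) in CFIm25 knockdown, 0.22 ± 0.05 (edgeR adjusted p = 0.00114) in CFIm68 knockdown and 0.16 ± 0.05 (edgeR adjusted p = 0.0269) in CFIm68 overexpression, and fell by 0.35 ± 0.05 (edgeR adjusted p = 3.92e-06) in CFIm25 overexpression. The CTSB call in CFIm68 overexpression was lost without any 1 of CFIm68 overexpression replicate 2 or 3 or control replicate 1 or 3, with log2 changes of 0.14 to 0.16 and adjusted p-values of 0.0576 to 0.106. CTSZ ranged over 95.9 to 101 CPM in CFIm25 knockdown, 103 to 112 CPM in CFIm68 knockdown, 87.5 to 94.1 CPM in CFIm25 overexpression, 75.95 to 81.2 CPM in CFIm68 overexpression, against 81.9 to 92.9 CPM in control. It rose by 0.30 ± 0.06 (edgeR adjusted p = 7.5e-05) in CFIm68 knockdown and by 0.15 ± 0.06 (edgeR adjusted p = 0.0483) in CFIm25 knockdown and fell by 0.16 ± 0.06 (edgeR adjusted p = 0.0445) in CFIm68 overexpression. The CTSZ call in CFIm25 knockdown was lost without any 1 of CFIm25 knockdown replicate 1 or 2 or control replicate 1, with log2 changes of 0.10 to 0.19 and adjusted p-values of 0.067 to 0.291. The same call was also lost with the 1 CPM filter (0.15, adjusted p = 0.0526). The CTSZ call in CFIm68 overexpression was lost without any 1 of CFIm68 overexpression replicate 1 or 2 or 3 or control replicate 2 or 3, with log2 changes of -0.12 to -0.17 and adjusted p-values of 0.0598 to 0.183. It was also lost in a fit of the compared groups alone (-0.17, adjusted p = 0.0501). CTSL stayed between 34.1 and 41.6 CPM in all 14 libraries, and its 1 call was a fall of 0.15 ± 0.06 (edgeR adjusted p = 0.0496) in CFIm68 knockdown. The CTSL call in CFIm68 knockdown was lost without any 1 of CFIm68 knockdown replicate 1 or 2 or 3 or control replicate 1 or 2 or 3, with log2 changes of -0.11 to -0.17 and adjusted p-values of 0.0543 to 0.183. The call was lost as well without a filter on low counts (-0.14, adjusted p = 0.0956) and with DESeq2 (-0.15, adjusted p = 0.0587).

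Of the 6 tested glycosidase and saposin genes 3 fell and 1 rose in CFIm25 knockdown, 4 fell and 2 rose in CFIm68 knockdown, 3 fell and 2 rose in CFIm25 overexpression, and 0 fell and 1 rose in CFIm68 overexpression. The shares higher were near those of all genes in both overexpressions, 33.3% beside 27.7% for CFIm25 and 16.7% beside 14.5% for CFIm68. The same held in CFIm68 knockdown, with 33.3% beside 28.3%, and in CFIm25 knockdown the share higher (16.7%) was below that of all genes (24.4%). Over all genes 23.2% fell in CFIm25 knockdown, 28.1% in CFIm68 knockdown, 29.1% in CFIm25 overexpression and 15.4% in CFIm68 overexpression. NEU1, the lysosomal sialidase at chr6:31857659-31862906, had the largest fall of any tested member in each knockdown. It had 73.2 and 79.2 CPM in CFIm25 knockdown, 91.9, 96.5 and 92.4 CPM in CFIm68 knockdown, 89.4, 93.1 and 84.8 CPM in CFIm25 overexpression, 151, 165 and 174 CPM in CFIm68 overexpression, against 142, 143 and 159 CPM in control. The 8 libraries of both knockdowns and of CFIm25 overexpression lay between 73.2 and 96.5 CPM, below all 6 libraries of CFIm68 overexpression and control. NEU1 fell 1.94-fold in CFIm25 knockdown (log2 change -0.96 ± 0.07, edgeR adjusted p = 8.12e-12), 1.58-fold in CFIm68 knockdown (-0.66 ± 0.06, edgeR adjusted p = 1.91e-10) and 1.66-fold in CFIm25 overexpression (-0.73 ± 0.06, edgeR adjusted p = 4.35e-11). Its change in CFIm68 overexpression was 0.14 ± 0.06 (edgeR adjusted p = 0.0774). GLA, alpha-galactosidase A at chrX:101397803-101408012, had 189.6 and 198 CPM in CFIm25 knockdown, 197, 190.1 and 189.9 CPM in CFIm68 knockdown, 256, 261 and 239 CPM in CFIm25 overexpression, 315, 345 and 340.3 CPM in CFIm68 overexpression, against 288, 299.6 and 303 CPM in control. Its 5 knockdown libraries lay at 189.6 to 198 CPM, below CFIm25 overexpression, which lay below control, and CFIm68 overexpression lay above control. GLA fell 1.53-fold in CFIm25 knockdown (log2 change -0.62 ± 0.06, edgeR adjusted p = 9.93e-10), 1.54-fold in CFIm68 knockdown (-0.63 ± 0.05, edgeR adjusted p = 2.08e-11) and 1.18-fold in CFIm25 overexpression (-0.24 ± 0.05, edgeR adjusted p = 0.000215). It rose by 0.17 ± 0.05 (edgeR adjusted p = 0.011) in CFIm68 overexpression. The GLA call in CFIm68 overexpression was lost without CFIm68 overexpression replicate 2 (log2 change 0.14, adjusted p = 0.0726) and without control replicate 1 (0.15, adjusted p = 0.0609).

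The other genes of this group did not move with NEU1 and GLA in every group. PSAP, the precursor of the saposins that help enzymes reach sphingolipids, ranged over 683 to 699 CPM in CFIm25 knockdown, 585 to 601 CPM in CFIm68 knockdown, 519 to 586 CPM in CFIm25 overexpression, 722 to 786 CPM in CFIm68 overexpression, against 683 to 732 CPM in control. PSAP fell by 0.37 ± 0.05 (edgeR adjusted p = 3.01e-07) in CFIm25 overexpression and by 0.25 ± 0.05 (edgeR adjusted p = 7.8e-05) in CFIm68 knockdown, and its change of -0.04 in CFIm25 knockdown did not pass. HEXA, the alpha subunit of beta-hexosaminidase, ranged over 138 to 142 CPM in CFIm25 knockdown, 123 to 133 CPM in CFIm68 knockdown, 153 to 164 CPM in CFIm25 overexpression, 171 to 183 CPM in CFIm68 overexpression, against 162 to 170.3 CPM in control. HEXA fell by 0.25 ± 0.06 (edgeR adjusted p = 0.000682) in CFIm25 knockdown and by 0.37 ± 0.05 (edgeR adjusted p = 5.8e-07) in CFIm68 knockdown. GLB1, lysosomal beta-galactosidase, ranged over 119 to 129 CPM in CFIm25 knockdown, 145 to 149 CPM in CFIm68 knockdown, 116 to 131 CPM in CFIm25 overexpression, 109 to 109.7 CPM in CFIm68 overexpression, against 105 to 117 CPM in control. GLB1 rose by 0.40 ± 0.05 (edgeR adjusted p = 5.12e-07) in CFIm68 knockdown, by 0.15 ± 0.06 (edgeR adjusted p = 0.0383) in CFIm25 knockdown and by 0.14 ± 0.06 (edgeR adjusted p = 0.0295) in CFIm25 overexpression, where its libraries overlapped with control. The GLB1 call in CFIm25 knockdown was lost without any 1 of CFIm25 knockdown replicate 2 or control replicate 1 or 2, with log2 changes of 0.10 to 0.16 and adjusted p-values of 0.0685 to 0.343. The GLB1 call in CFIm25 overexpression was lost without any 1 of CFIm25 overexpression replicate 2 or control replicate 1 or 2, with log2 changes of 0.10 to 0.15 and adjusted p-values of 0.0568 to 0.162. The same call was also lost in a fit of the compared groups alone (0.15, adjusted p = 0.0542). NAGLU, which removes N-acetylglucosamine from heparan sulfate, ranged over 37.6 to 37.9 CPM in CFIm25 knockdown, 40.5 to 44.3 CPM in CFIm68 knockdown, 42.98 to 52.5 CPM in CFIm25 overexpression, 31.4 to 33.2 CPM in CFIm68 overexpression, against 33.1 to 34.2 CPM in control. NAGLU rose by 0.49 ± 0.07 (edgeR adjusted p = 1.07e-06) in CFIm25 overexpression and by 0.35 ± 0.07 (edgeR adjusted p = 8.87e-05) in CFIm68 knockdown. HEXA, NAGLU and GLB1 share 617, 379 and 83 exon bases with another annotated gene on the same strand.

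TFE3 had 74.5 and 78.8 CPM in CFIm25 knockdown, 77.7, 82.01 and 81.7 CPM in CFIm68 knockdown, 87.2, 87.6 and 91.8 CPM in CFIm25 overexpression, 86.6, 88.5 and 87.6 CPM in CFIm68 overexpression, against 86.2, 91.8 and 96.6 CPM in control. The knockdown libraries lay below control, and both overexpression groups overlapped with it. TFE3 fell by 0.26 ± 0.06 (edgeR adjusted p = 0.00107) in CFIm25 knockdown and by 0.19 ± 0.05 (edgeR adjusted p = 0.00471) in CFIm68 knockdown. Its changes in overexpression were -0.04 ± 0.05 (edgeR adjusted p = 0.521) for CFIm25 and -0.06 ± 0.06 (edgeR adjusted p = 0.411) for CFIm68, neither past the test.

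Since TFE3 binds E-box letters ahead of lysosomal genes, the RefSeq promoter windows of the members (GRCh38.p14, 250 bases before to 50 after each gene's start) were searched for CACGTG, which reads the same on both strands. Windows were found for 27 of the 37 members, and not for ATP6V0E1, ATP6V1A, ATP6V1B2, ATP6V1C1, ATP6V1H, LAMP2, CTSB, HEXA, NAGLU and PSAP. The hexamer stood in 10 of the 27 genes (37%), against 8.77% of 27305 genes with a window. A gene counted if any of its windows held the hexamer, and CD63 had 8 windows. Over windows the hexamer stood in 10 of 38 (26.3%), against 7.26% of 35116. The longer GTCACGTG, searched on both strands and overlapping with it, stood in 8 of the 27 (29.6%), against 2.93% of all genes. The 60 bases given for each gene here are from the windows of the 8 tested members with CACGTG, each read 5′ to 3′ on the strand of its gene, with CACGTG in capitals. They are shown because these 8 genes had a common direction in CFIm25 overexpression.
LAMP1 (chr13:113297020-113297079, plus strand): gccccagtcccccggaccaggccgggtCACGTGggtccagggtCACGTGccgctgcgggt
NEU1 (chr6:31862915-31862974, minus strand): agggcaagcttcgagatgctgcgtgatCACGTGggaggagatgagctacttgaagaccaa
CTSD (chr11:1763942-1764001, minus strand): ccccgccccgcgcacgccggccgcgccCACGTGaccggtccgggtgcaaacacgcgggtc
CTSA (chr20:45891266-45891325, plus strand): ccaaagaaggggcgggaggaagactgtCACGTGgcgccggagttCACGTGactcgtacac
CD63 (chr12:55729157-55729216, minus strand): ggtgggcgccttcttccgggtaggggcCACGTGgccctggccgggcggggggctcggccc
ATP6V0B (chr1:43974876-43974935, plus strand): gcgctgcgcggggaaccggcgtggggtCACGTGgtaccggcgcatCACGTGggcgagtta
ATP6V0D1 (chr16:67481184-67481243, minus strand): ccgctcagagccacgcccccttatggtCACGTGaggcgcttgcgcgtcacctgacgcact
ATP6V1G1 (chr9:114587684-114587743, plus strand): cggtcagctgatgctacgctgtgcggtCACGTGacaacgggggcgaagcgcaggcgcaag

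The LAMP1 window held CACGTG 6 times, of which the printed part shows 2, the ATP6V0B and CTSA windows 2 times each, and the others once. All 8 of these members were lower in CFIm25 overexpression, with a median log2 change of -0.40, among them CTSA, whose call was lost without CFIm25 overexpression replicate 1 or control replicate 3 as given above. Of the 15 tested members with a window and no CACGTG, 5 were lower, 2 were higher and the median was -0.04. The tested members without a window are in neither set, and whether they hold CACGTG is unknown. Of these, ATP6V0E1, ATP6V1B2, ATP6V1C1, ATP6V1H, LAMP2, CTSB and PSAP were lower too. ATP6V1A and NAGLU were higher and HEXA did not pass. Over all tested genes with a window, 30.7% of 1251 genes with CACGTG and 28.1% of 8521 genes without it were lower in CFIm25 overexpression. In the knockdowns the split did not run the same way throughout. In CFIm68 knockdown 4 of the 8 with CACGTG were lower and 0 higher (median -0.12), and 9 of the 15 without it were lower and 4 higher (median -0.19), beside 29.8% and 28% lower over all genes with and without it. In CFIm25 knockdown 5 of the 8 were lower and 1 higher (median -0.23), and 6 of the 15 were lower and 3 higher (median -0.07), beside 26.1% and 23.1% lower over all genes. In CFIm68 overexpression 2 of the 8 were lower and 3 higher. Of the 15, 3 were lower and 4 higher, beside 15.7% and 15.6% lower over all genes. The all-gene shares higher, with and without CACGTG, were 28.9% and 28.5% in CFIm25 overexpression and 12.3% and 14.6% in CFIm68 overexpression. They were 23.7% and 24.6% in CFIm25 knockdown and 25.7% and 28.6% in CFIm68 knockdown. The 4 comparisons share the control libraries. The split by these letters was made after the changes were known, and a match is a run of letters, not a measured binding site.

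Counts per gene do not show which poly(A) site was used. The annotated 3′ UTRs of the 33 tested members had a median of 630 bases, against 1067 bases for 11914 tested genes. TGTA, the DNA letters of the UGUA motif that CFIm25 binds, stood in the 3′ UTR of 28 of the 33 members (84.8%), against 85.8% of all tested genes. Within the last 100 bases it stood in 15 (45.5%), against 53.8%. For 5 members with changes in both knockdowns, chosen after their values were seen, the 30 bases around the TGTA nearest the annotated end are given here 5′ to 3′ in transcript direction, with the motif in capitals.
NEU1: tctgttttcctcaTGTAtccttgtgagcct
ATP6V0C: ctagagtgctctgTGTAtgcggatgattta
ATP6V0E1: gagacagtaatttTGTAtttcagtagcagg
LAMP1: tctggttcattcaTGTAacatgataatttt
CTSD: agtcccaggggcaTGTAttggcctggaggt

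These motifs began 100 bases before the annotated end in NEU1, 229 in ATP6V0C, 89 in ATP6V0E1, 49 in LAMP1 and 142 in CTSD. GLA, ATP6V1F and ATP6V0B had none, and the annotated 3′ UTR of GLA is 6 bases long. ATP6V0E1, with 1083 bases and the motif near its end, rose in both knockdowns, and so did ATP6V1F, with 265 bases and no motif. LAMP1, with 1251 bases, and GLA, with 6, fell in both. These genes were picked with their changes known, and the part of 3′ UTR length or motif in the changes was not tested. Across the 33 members Spearman's rho between 3′ UTR length and log2 change was 0.12 in CFIm25 knockdown, beside 0.06 across all genes, and -0.02 in CFIm68 knockdown, beside 0.08. These correlations are over genes of the same libraries and are descriptions.

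CFIm68 overexpression was also set directly against CFIm25 overexpression. Here 26 of 33 members passed, against 63.7% of all tested genes, with 19 higher (background 32.9%) and 7 lower (background 30.8%) in CFIm68 overexpression, and a median log2 difference of 0.26. The highest were NEU1 (0.87 ± 0.06, edgeR adjusted p = 5.64e-13), ATP6V0C (0.81 ± 0.09, edgeR adjusted p = 1.15e-08) and ATP6V0E1 (0.66 ± 0.11, edgeR adjusted p = 4.74e-06). CD63 (0.63 ± 0.05, edgeR adjusted p = 9.96e-12), ATP6V0B (0.58 ± 0.07, edgeR adjusted p = 2.46e-08), ATP6AP2 (0.52 ± 0.05, edgeR adjusted p = 2.93e-10), CTSB (0.51 ± 0.05, edgeR adjusted p = 4.22e-09) and ATP6V0D1 (0.50 ± 0.06, edgeR adjusted p = 6.03e-08) followed. For all 8 no library of 1 overexpression group overlapped with the other group, as for 26 of the 33 tested members. These 8 were taken by the size of their difference. The share of all genes without overlap was not counted, so the 26 are not read as a trait of the members. The lowest were ATP6V1A (-0.68 ± 0.05, edgeR adjusted p = 1.46e-11), NAGLU (-0.54 ± 0.07, edgeR adjusted p = 1.6e-07) and ATP6AP1 (-0.43 ± 0.06, edgeR adjusted p = 6.87e-07). In the V0 sector 4 of 6 genes were higher and ATP6V0A2 was lower, and all 4 tested membrane protein genes were higher. Within the head the catalytic ATP6V1A was lower and its partner ATP6V1B2 higher, by 0.22 in log2. The ATP6V1B2 call between the overexpressions was lost without CFIm25 overexpression replicate 1 (log2 change 0.19, adjusted p = 0.0557) and without CFIm68 overexpression replicate 1 (0.14, adjusted p = 0.13). It was also lost in a fit of the compared groups alone (0.20, adjusted p = 0.0586). HEXA was higher by 0.14. The HEXA call between the overexpressions was lost without CFIm25 overexpression replicate 3 (log2 change 0.11, adjusted p = 0.0865) and without CFIm68 overexpression replicate 2 (0.11, adjusted p = 0.102). The call was lost as well in a fit of the compared groups alone (0.12, adjusted p = 0.0827). Members that did not pass were ATP6V0A1, ATP6V1C1, ATP6V1H, CTSA, CTSL, TPP1 and TFE3, with log2 differences between -0.21 and 0.28.

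**Figure D3:**
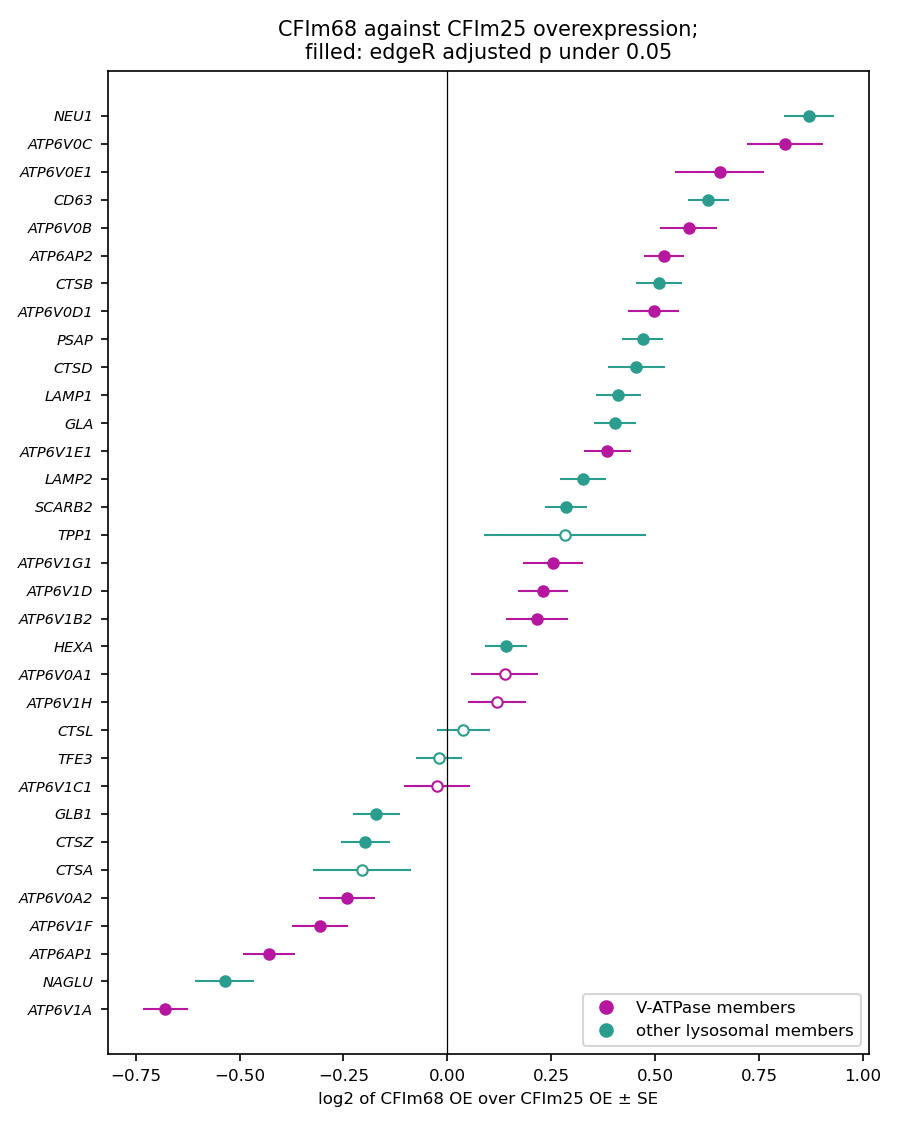
Log2 ratio of CFIm68 overexpression over CFIm25 overexpression ± SE (horizontal axis) for the 33 tested members, sorted; colours separate V-ATPase genes from other lysosomal genes and filled points passed edgeR's test. NEU1 at 0.87 is at the top, ATP6V1A at -0.68 at the bottom, and 19 filled points lie right of 0 and 7 left of it.

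Set against CFIm25 knockdown, CFIm68 knockdown had 13 of 33 members past the test, against 24.2% of all tested genes, with 8 higher (background 11.1%) and 5 lower (background 13.2%). This count rests on few libraries: it was 2 (0 higher, 2 lower) without CFIm25 knockdown replicate 1, 8 (5 higher, 3 lower) without CFIm68 knockdown replicate 2, 12 (9 higher, 3 lower) without CFIm25 knockdown replicate 2, and 20 in a fit of the 5 knockdown libraries alone. ATP6AP2 was lower in CFIm68 knockdown by 0.35 ± 0.05 (edgeR adjusted p = 1.33e-05) and is the 1 call that held without any 1 library. The other 12 were each lost without at least 1 library. NEU1 (0.29 ± 0.07, edgeR adjusted p = 0.00164) and CTSD (0.36 ± 0.08, edgeR adjusted p = 0.00088) were higher in CFIm68 knockdown. The NEU1 call between the knockdowns was lost without CFIm25 knockdown replicate 1 (log2 change 0.24, adjusted p = 0.0642). The CTSD call between the knockdowns was lost without CFIm25 knockdown replicate 1 (log2 change 0.25, adjusted p = 0.0726). PSAP was lower by 0.21 ± 0.05 (edgeR adjusted p = 0.00438). The PSAP call between the knockdowns was lost without CFIm25 knockdown replicate 2 (log2 change -0.20, adjusted p = 0.0532).

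A wider set of 116 lysosomal genes in 6 lists, of which 94 were tested, was counted beside the members. ATP6V1C2, CLN3, RRAGA and FLCN of these lists were not analysed here. In CFIm25 overexpression 47 of the 94 fell and 10 rose, with a median log2 change of -0.17, beside 29.1% and 27.7% of all genes. In CFIm25 knockdown 38 fell and 18 rose (all genes 23.2% and 24.4%), and in CFIm68 knockdown 37 fell and 26 rose (28.1% and 28.3%). In CFIm68 overexpression 12 fell and 13 rose, near the all-gene shares of 15.4% and 14.5%. Of 30 tested hydrolases 14 fell and 3 rose in CFIm25 overexpression, and of 22 membrane proteins 11 fell and 2 rose. Of 20 sorting and tethering genes 11 fell and 2 rose, of 11 genes of nutrient signalling at the lysosome 8 fell and 1 rose, and of 8 genes of V-ATPase assembly and regulation 3 fell and 0 rose. Of the 22 membrane proteins 12 fell and 4 rose in CFIm25 knockdown, and 14 fell and 5 rose in CFIm68 knockdown. Of 9 further subunit isoforms of the pump 3 were tested, and 2 of these rose in CFIm25 overexpression. Between the overexpressions 47 of the 94 were higher and 18 lower in CFIm68 overexpression, beside 32.9% and 30.8% of all genes.

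**Figure D4:**
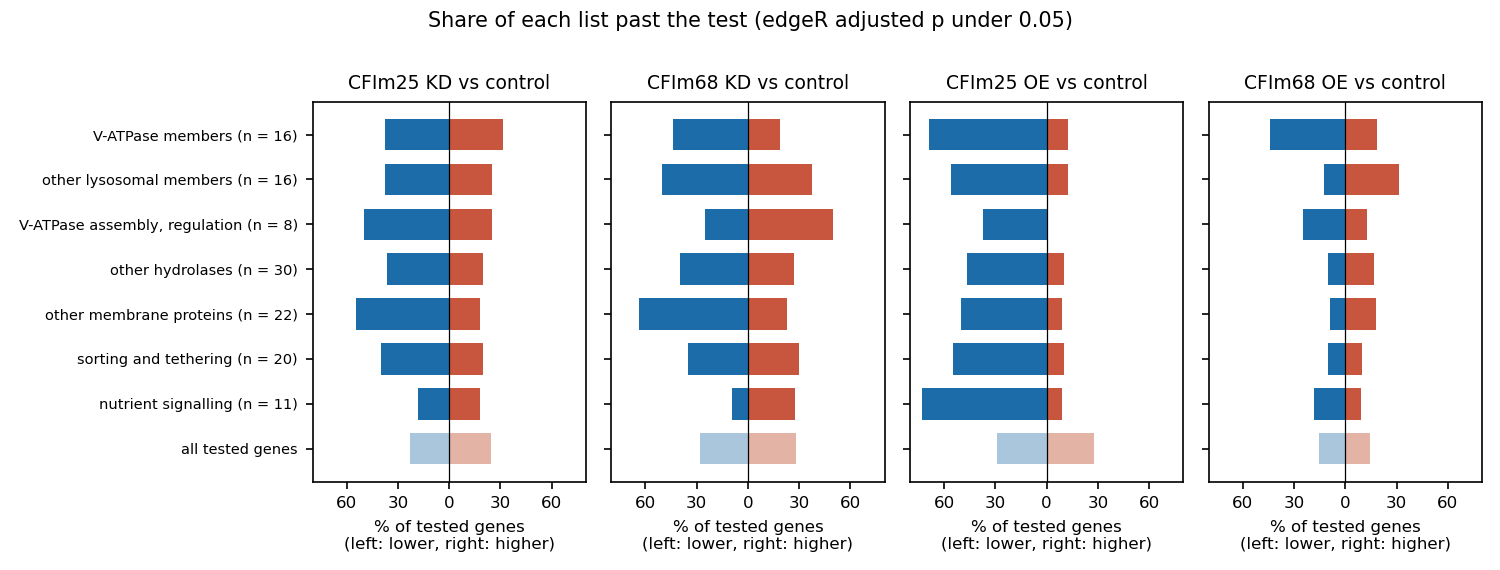
Share of the tested genes of each list (in %, horizontal axis) that passed edgeR's test as lower (left) or higher (right), in each comparison with control, with all tested genes at the bottom in pale colours. In CFIm25 overexpression the lower share of each of the 7 lists drawn exceeds that of all tested genes, 29.1%; the 3 tested further isoforms of the pump, of which 0 fell and 2 rose, and TFE3 are not drawn.

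Some of these pathway genes moved further than any member, at low levels. VMA21, an assembly factor of V0 in the endoplasmic reticulum, had 20.3 and 21.7 CPM in CFIm25 knockdown, 31.6, 28.9 and 28.8 CPM in CFIm68 knockdown, 5.02, 6.39 and 7.30 CPM in CFIm25 overexpression, 5.72, 3.79 and 3.14 CPM in CFIm68 overexpression, against 6.98, 6.12 and 4.94 CPM in control. All 5 knockdown libraries lay above every other library, and VMA21 rose by 1.81 ± 0.14 (edgeR adjusted p = 3.44e-11) in CFIm25 knockdown and by 2.31 ± 0.13 (edgeR adjusted p = 7.17e-15) in CFIm68 knockdown. It fell by 0.52 ± 0.17 (edgeR adjusted p = 0.0246) in CFIm68 overexpression, with overlap with control. The VMA21 call in CFIm68 overexpression was lost without any 1 of CFIm68 overexpression replicate 2 or 3 or control replicate 1 or 2, with log2 changes of -0.36 to -0.51 and adjusted p-values of 0.0617 to 0.153. The VMA21 call in CFIm68 overexpression moved by over 1.5 times but held without CFIm68 overexpression replicate 1 (log2 change -0.79, adjusted p = 0.0017). MFSD8, a transporter of the lysosomal membrane mutated in a form of neuronal ceroid lipofuscinosis, had 2.36 and 1.53 CPM in CFIm25 knockdown, 1.67, 1.15 and 0.931 CPM in CFIm68 knockdown, 8.45, 7.07 and 6.43 CPM in CFIm25 overexpression, 5.72, 7.07 and 8.91 CPM in CFIm68 overexpression, against 6.86, 6.55 and 5.88 CPM in control. Its knockdown libraries lay below every other library, and MFSD8 fell by 1.77 ± 0.21 (edgeR adjusted p = 9.93e-08) in CFIm25 knockdown and by 2.33 ± 0.20 (edgeR adjusted p = 1.14e-10) in CFIm68 knockdown. OSTM1, the partner of the chloride-proton exchanger CLC-7, had 3.59 and 3.92 CPM in CFIm25 knockdown, 3.10, 2.47 and 2.63 CPM in CFIm68 knockdown, 5.53, 4.81 and 4.29 CPM in CFIm25 overexpression, 10.3, 11.4 and 9.97 CPM in CFIm68 overexpression, against 9.81, 9.83 and 11.3 CPM in control. Both knockdowns and CFIm25 overexpression lay below control, with falls of 1.45 ± 0.14 (edgeR adjusted p = 1.6e-09), 1.91 ± 0.13 (edgeR adjusted p = 6.06e-13) and 1.07 ± 0.12 (edgeR adjusted p = 2.62e-08) in that order.

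DPP7, a dipeptidyl peptidase of lysosomes and vesicles, had 2.77 and 2.49 CPM in CFIm25 knockdown, 1.94, 2.43 and 1.98 CPM in CFIm68 knockdown, 8.62, 9.84 and 12.5 CPM in CFIm25 overexpression, 9.23, 11.2 and 11.98 CPM in CFIm68 overexpression, against 7.43, 9.07 and 8.71 CPM in control. It was low in all 5 knockdown libraries, with falls of 1.69 ± 0.17 (edgeR adjusted p = 6.08e-09) in CFIm25 knockdown and 1.99 ± 0.16 (edgeR adjusted p = 2.08e-11) in CFIm68 knockdown, and rose by 0.36 ± 0.13 (edgeR adjusted p = 0.0361) in CFIm68 overexpression. The DPP7 call in CFIm68 overexpression was lost without any 1 of CFIm68 overexpression replicate 2 or 3 or control replicate 1 or 3, with log2 changes of 0.28 to 0.39 and adjusted p-values of 0.0579 to 0.16. The same call was also lost with DESeq2 (0.36, adjusted p = 0.0623). CTSO, a cysteine cathepsin, had 4.45 and 3.44 CPM in CFIm25 knockdown, 3.34, 2.88 and 3.32 CPM in CFIm68 knockdown, 1.33, 1.70 and 2.78 CPM in CFIm25 overexpression, 13.2, 9.91 and 9.60 CPM in CFIm68 overexpression, against 5.11, 7.16 and 5.71 CPM in control. The overexpression groups stood on opposite sides of control, with a fall of 1.67 ± 0.21 (edgeR adjusted p = 1.07e-07) in CFIm25 overexpression and a rise of 0.86 ± 0.16 (edgeR adjusted p = 0.000139) in CFIm68 overexpression. CTSO also fell by 0.91 ± 0.18 (edgeR adjusted p = 7.86e-05) in CFIm68 knockdown and by 0.63 ± 0.19 (edgeR adjusted p = 0.00785) in CFIm25 knockdown. The CTSO call in CFIm25 knockdown was lost without CFIm25 knockdown replicate 2 (log2 change -0.43, adjusted p = 0.171) and without control replicate 2 (-0.48, adjusted p = 0.0657). CTSK, the collagen-degrading cathepsin of bone, fell by 1.13 ± 0.20 (edgeR adjusted p = 2.57e-05) in CFIm25 overexpression and by 0.67 ± 0.18 (edgeR adjusted p = 0.00231) in CFIm68 knockdown and rose by 0.59 ± 0.17 (edgeR adjusted p = 0.0079) in CFIm68 overexpression, at 3.45 to 3.47 CPM in CFIm25 knockdown, 2.59 to 3.20 CPM in CFIm68 knockdown, 1.28 to 2.702 CPM in CFIm25 overexpression, 6.24 to 7.59 CPM in CFIm68 overexpression, against 3.57 to 5.57 CPM in control. The CTSK call in CFIm68 overexpression was lost without control replicate 1 (log2 change 0.45, adjusted p = 0.0646). CTSS, a cathepsin known from antigen presentation, ranged over 3.50 to 4.28 CPM in CFIm25 knockdown, 4.25 to 5.39 CPM in CFIm68 knockdown, 1.68 to 2.62 CPM in CFIm25 overexpression, 3.39 to 3.95 CPM in CFIm68 overexpression, against 1.97 to 2.16 CPM in control. It rose by 0.92 ± 0.19 (edgeR adjusted p = 0.000234) in CFIm25 knockdown, by 1.19 ± 0.17 (edgeR adjusted p = 1.08e-06) in CFIm68 knockdown and by 0.83 ± 0.19 (edgeR adjusted p = 0.00155) in CFIm68 overexpression.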

How the data were processed

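The 14 HEK 293 libraries were prepared with a stranded, poly(A)-selecting kit, per the labels' protocols. Reads were trimmed with cutadapt 1.16 and aligned to hg38 with STAR 2.7.1a, per the submitters' processing notes. Counter, annotation and strand setting: not given in the sources used here. Raw counts per gene, as the authors deposited them, were the input.

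The members, lists and tests were chosen with earlier results of these data known. Symbols came from GENCODE 29, and 17959 of 18006 identifiers matched. All 14 libraries entered 1 fit in edgeR 4.0.16 (R 4.3.3) with TMM scaling, filterByExpr (minimum count 10, minimum total 15) and the quasi-likelihood test, with Benjamini-Hochberg adjustment over 12080 genes. The code was first run on simulated data in which few genes changed. The changes set there were larger than most of those called for members. Smaller or more widespread changes were thus not covered. A change is called at an adjusted p under 0.05. Members were named with values per library where a log2 change against control passed at a size of at least 0.5, and TFEB and TFE3 in any case. Pathway genes needed a size of at least 1, up to 4 per list. Alternatives were DESeq2 1.42.0, RLE factors, no filter, a filter of 1 CPM in 3 libraries, fits of the compared groups alone, the replicate number as a block, and leaving out each library. Replicate pairs differed beyond counting noise (chi-square over degrees of freedom 1.79 to 9.08).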

Additional observations from a re-analysis of the deposited data

Results flagged for a closer look

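For 7 members each overexpression passed the test against control, but in opposite directions, and the direct comparison of CFIm68 overexpression with CFIm25 overexpression passed too. The log2 difference was 0.628 for CD63, 0.581 for ATP6V0B, 0.521 for ATP6AP2, 0.509 for CTSB, 0.412 for LAMP1 and 0.403 for GLA, all higher in CFIm68 overexpression. For ATP6V1A it was -0.679, lower in CFIm68 overexpression. For ATP6V0B, LAMP1, CTSB and GLA the rise in CFIm68 overexpression against control was lost without at least 1 library, as given with each gene. The shared siRNA protocol in the labels of all groups, and the unnamed means of overexpression, were not tested as part of this difference.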

How the results depend on the processing

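No member result that passed in the fit of all libraries or in the alternative run turned its direction. Results that passed in neither were not compared for direction. The total number of members past the test moved by over 1.5 times for 1 of the 6 comparisons, CFIm68 knockdown against CFIm25 knockdown, where it was 20 (12 higher, 8 lower) in a fit of the compared groups alone, 2 without CFIm25 knockdown replicate 1 and 8 without CFIm68 knockdown replicate 2, against 13 in the fit of all libraries. Leaving out 1 library gave 16 to 20 in CFIm25 knockdown, 24 to 26 in CFIm68 knockdown, 23 in CFIm25 overexpression, 12 to 16 in CFIm68 overexpression, 2 to 13 between the knockdowns and 25 to 27 between the overexpressions. Of the counts in 1 direction, those of higher members also fell by over 1.5 times, with 4 to 8 higher in CFIm68 overexpression, against 8 with all libraries, and 5 to 8 higher in CFIm25 knockdown, against 9. Without a CFIm25 knockdown library, the lone one left is assumed to vary like the other groups. Calls lost without at least 1 library numbered 9 of 22 in CFIm25 knockdown, 1 of 25 in CFIm68 knockdown, 3 of 24 in CFIm25 overexpression, 6 of 17 in CFIm68 overexpression, 12 of 13 between the knockdowns and 2 of 26 between the overexpressions. The cause was not tested. Of 198 gene results, DESeq2 kept the side of the threshold for 197, RLE factors for 198, no filter for 195, the 1 CPM filter for 197 and fits of the compared groups alone for 184. Same-numbered libraries did not deviate together in every comparison (r -0.06 to 0.17), so the numbers were not taken as pairs. Every library was closest to its own number in CFIm68 knockdown and control (6 of 6), against 2 of 6, 3 of 6 and 5 of 6 in the other comparisons of 3 with 3, a hint from the data and not from the design. In the fit with a replicate block, 23, 26, 25, 18, 14 and 26 members passed in the order CFIm25 knockdown, CFIm68 knockdown, CFIm25 overexpression, CFIm68 overexpression, between the knockdowns and between the overexpressions. The block gained 5 calls and lost 0.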
